A study of Saccharomyces cerevisiae with 24 samples.

Results

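Prp40 is a protein of the U1 small nuclear ribonucleoprotein (snRNP), the particle that recognises the 5′ splice site of an intron at the start of spliceosome assembly. In budding yeast it carries WW domains that are known to contact the phosphorylated tail of RNA polymerase II. U1 can be recruited to a gene while its RNA is still being made, so chromatin immunoprecipitation (ChIP) of a U1 protein reads out where early spliceosomes assemble. Few yeast genes have an intron, and many of those that do encode ribosomal proteins, which are among the most strongly transcribed genes of a growing cell.

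A pair of ChIP-chip profiles of Prp40 in Saccharomyces cerevisiae were compared, each a single column of values among the 24 columns of the series. In the first, called the 9myc profile here, Prp40 carried a C-terminal 9myc tag at its own locus and cells grew in rich medium. In the second, PRP40_3myc_control, the tag was 3myc and cells grew in SC-URA, synthetic medium without uracil. Both cultures were harvested at an optical density of 0.6. By its title the control is the untreated partner of the strain spt5_194 and of cells given 6-azauracil, an inhibitor of transcription elongation, and no mutation or drug is named for it. The 9myc profile combines 5 biological replicates and the control 4, and single replicates were not analysed here. Tag, strain and medium differ together between the columns and cannot be told apart. With 1 combined column on each side there is no spread between replicates, so every difference below is a description without a test, and the small number of arrays limits its precision.

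The array carries 1 spotted probe per open reading frame, and each value is a log2 ratio of immunoprecipitate and whole-cell extract. Positive values most likely stand for enrichment in the immunoprecipitate, because strongly transcribed genes are positive, although the direction of the ratio is not stated in the sources used here. Of 5674 matched nuclear genes, 5637 had a value in both columns: 230 intron genes (91 for ribosomal proteins and 139 others), 5362 intronless genes (41 of them for ribosomal proteins) and 45 placed in neither class. The bulk of intronless genes looked much alike in both columns, with a median of -0.06 in the 9myc profile and -0.03 in the control and a robust SD across genes of 0.23 and 0.19. Over all probes the columns correlated at a Pearson r of 0.38. A control spot labelled Arabidopsis read 2.03 in the 9myc profile and 3.22 in the control, and the part of such spots in any result was not tested.

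The intron genes that dominate the 9myc profile held much lower values in the control. Ribosomal protein genes with an intron had a median log2 ratio of 2.14 in the 9myc profile, with a range from -0.32 to 2.86, and of 0.50 in the control, with a range from -0.88 to 1.39. The other intron genes had a median of 0.65 in the 9myc profile and of 0.02 in the control. Ribosomal protein genes without an intron had medians of 0.73 and 0.47, and the remaining intronless genes -0.06 and -0.03. In the control the ribosomal protein genes thus lay above the bulk of genes whether or not they had an intron, and the other intron genes lay close to it.

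**Figure D1:**
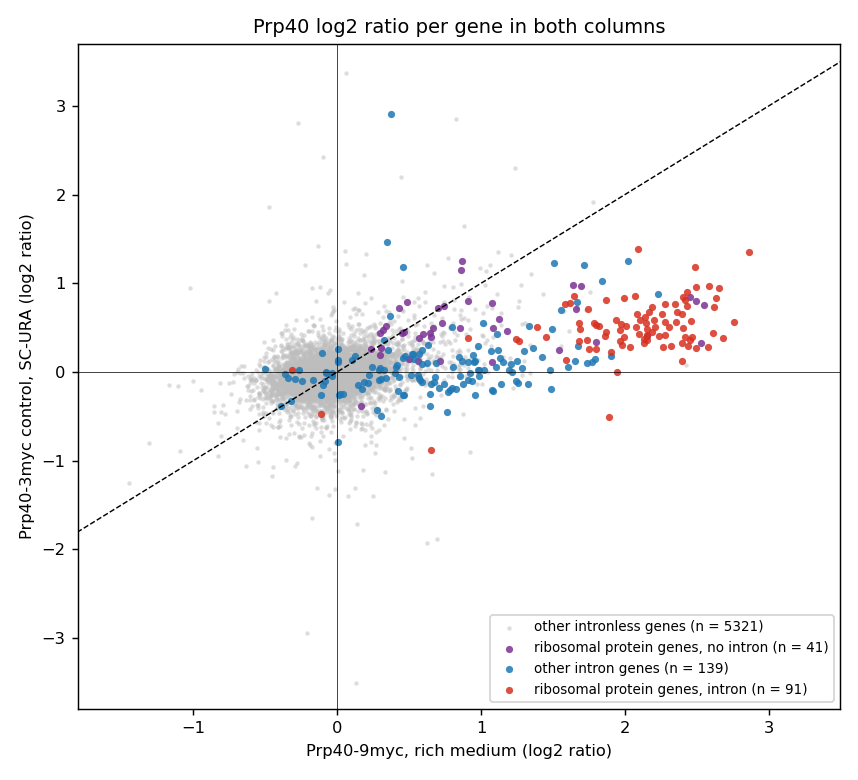
Log2 ratio of each gene in the Prp40-9myc profile (horizontal axis) and in the Prp40-3myc control (vertical axis), with the dashed line marking equal values; NCR1, at the lower limit of the scale in the control, is not drawn. Ribosomal protein genes with an intron (red) sit around 2.14 on the horizontal and 0.50 on the vertical axis, and the other intron genes (blue) spread along the horizontal axis with a median of 0.02 on the vertical one.

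The distance between intron and intronless genes of one kind was then taken within each column. In median, intron-bearing ribosomal protein genes exceeded the intronless ones by 1.41 in the 9myc profile and by 0.03 in the control. Other intron genes exceeded other intronless genes by 0.70 in the 9myc profile and by 0.06 in the control. Such distances carry the scale of their column, and after quantile normalisation of the pair they were 0.95 and 0.05 for ribosomal protein genes and 0.56 and 0.06 for the others. The glycolytic and fermentation genes, 18 genes without introns that had a median RNA polymerase II value of 1.40, had Prp40 medians of 0.87 and 0.77. In the 9myc profile 88 of the 91 ribosomal protein intron genes lay above the glycolytic median, and in the control 17 did. By percentile rank among all genes the order of both groups was turned: ribosomal protein intron genes stood at a median rank of 99.1 and glycolytic genes at 95.9 in the 9myc profile, against 96.2 and 98.4 in the control.

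The 4 other columns of Prp40 without RNase showed the same division by tag and medium. The 9myc strains were grown in rich medium, one with the deletion labelled del_cbc and one with shortened fixation. There the ribosomal protein intron genes exceeded the intronless ones by 1.30 and 1.59 in median, and other intron genes exceeded other intronless genes by 0.67 and 1.07. In the 3myc strains in SC-URA the first distance was -0.15 in spt5_194, a strain named for the elongation factor gene SPT5, and -0.34 after 80 µg/ml 6-azauracil for 30 minutes. The second distance was 0.03 in spt5_194 and -0.05 with 6-azauracil. RNA polymerase II itself, measured in rich medium, gave -0.26 for the first distance, and Spt5, which carried a 9myc tag, gave -0.08. The 3 Prp40 columns with 3myc therefore lay near the polymerase and Spt5 columns in this measure, and the 3 with 9myc did not. The first distance also varied between columns of other proteins under an unchanged 13myc tag. For Lea1 it was 1.05, and 0.16 in the column labelled SUB2_WT. For Brr2 it was -0.24, and 0.74 in the column labelled SUB2_WT. The columns labelled SUB2_WT also came from cultures at another temperature, so label and temperature changed together there and cannot be told apart.

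**Figure D2:**
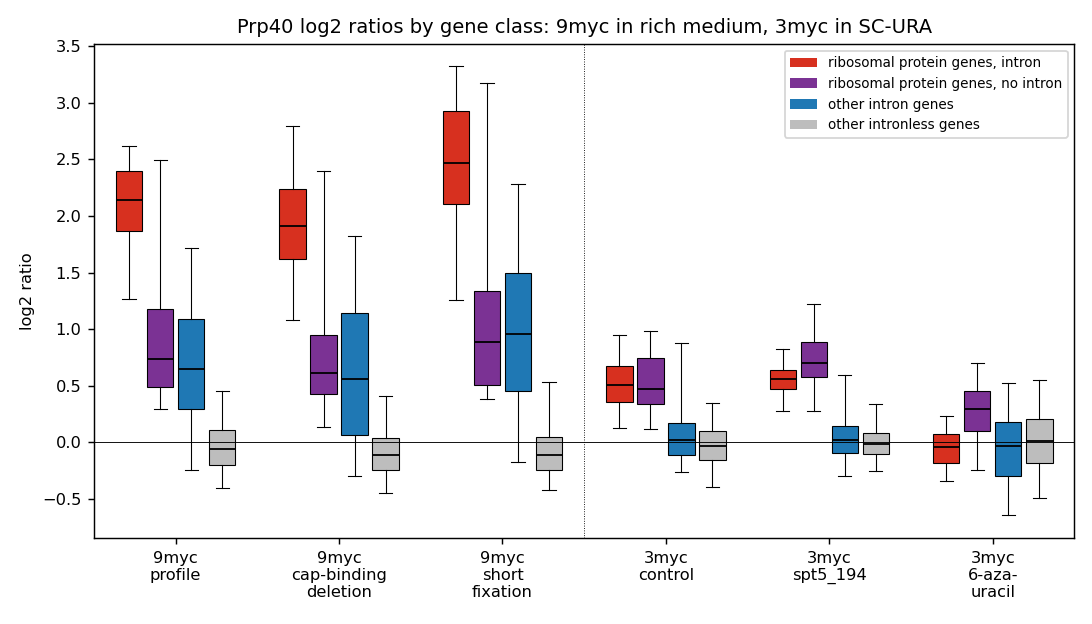
Log2 ratios of 4 gene classes in the 6 Prp40 columns without RNase; boxes span the quartiles with the median as a line and whiskers reach the 5th and 95th percentile of genes, not of replicates. The red and purple medians are 1.41, 1.30 and 1.59 apart in the 9myc columns left of the dotted line and 0.03, -0.15 and -0.34 apart in the 3myc columns right of it.

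Gene by gene, the same division was wide among intron genes. For each gene the 3 centred values with 3myc were set against the 3 with 9myc, which include both columns compared here. All 3 were lower with 3myc for 191 of 230 intron genes, against 15.2% of all genes. This held for 88 of the 91 ribosomal protein intron genes, for 103 of the 139 other intron genes, and for 15 of the 41 intronless ribosomal protein genes. The 3 ribosomal protein exceptions were RPL43B, RPS30A and RPS19A. RPL43B and RPS30A were also the 2 genes of their class below 0 in the 9myc profile, at -0.32 and -0.11. RPS19A stood at 0.65 in the 9myc profile and at -0.88 in the control. The opposite order, all 3 higher with 3myc, held for 1 intron gene, YBR219C, against 8.75% of all genes.

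The size of the difference was taken as the control minus the 9myc value after each column was centred on the median of its intronless genes. Ribosomal protein intron genes differed by a median of -1.62, and 90 of 91 were below 0, against 53% of all genes. More than 1 on the log2 scale, a 2-fold ratio, separated the columns for 81 of them, for 39 of the 139 other intron genes and for 7 of the 41 intronless ribosomal protein genes, against 3.16% of all genes. Of all intron genes 120 were lower in the control by that much, and 2 were higher, RRT8 and REC102, against 0.355% of all genes. Among intronless genes 54 were lower and 18 higher.

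These counts rest on a common scale for both columns, and they shrank when the scale was changed. After quantile normalisation 46 intron genes in place of 120 were lower by more than 1, and the median difference was -0.79 for ribosomal protein intron genes and -0.43 for the other intron genes. The straight line fitted by least squares to the intronless genes had a slope of 0.31, so that high values in the 9myc profile went with much smaller ones in the control for intronless genes too. Set against that line, 2 intron genes were lower by more than 1. The median distance from the line was -0.12 for ribosomal protein intron genes, with 62 of 91 below it, and -0.16 for other intron genes, with 98 of 139 below it. Intronless ribosomal protein genes lay 0.24 above the line in median with 9 of 41 below it, and glycolytic genes 0.43 above it with 0 of 18 below. Scatter in the 9myc values lowers such a slope, and how far it did so was not tested. Both intron classes lay below the intronless ribosomal protein genes on each of these scales, and ranks do not depend on the scale.

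The 100 highest genes of each column showed the change of order without any scale. In the 9myc profile 89 of the 100 highest were intron genes, 79 of them for ribosomal proteins, with 7 intronless ribosomal protein genes and 4 other intronless genes. In the control 29 of the 100 highest were intron genes, 20 of them for ribosomal proteins, with 11 intronless ribosomal protein genes, 58 other intronless genes and 2 in neither class. Glycolytic genes made up 1 of the 100 in the 9myc profile and 10 in the control. The columns shared 28 of their 100 highest genes, and 22 of these were intron genes.

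**Figure D3:**
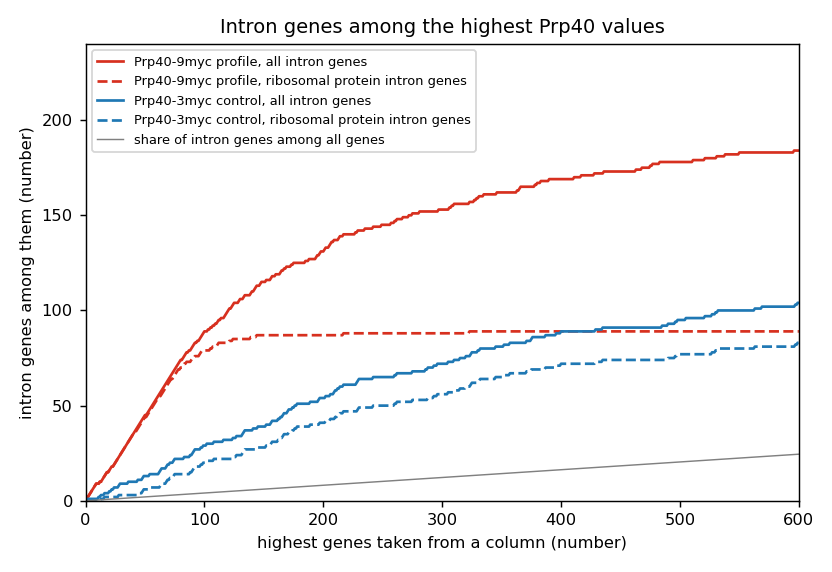
Number of intron genes (vertical axis) among the highest genes taken from each column (horizontal axis), for the Prp40-9myc profile in red and the Prp40-3myc control in blue, with ribosomal protein intron genes dashed; the grey line is the share of intron genes among all genes. At 100 genes the solid red curve stands at 89 and the solid blue curve at 29.

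A gene was called high when it passed the 99th percentile of the intronless genes of its column, a log2 ratio of 1.03 in the 9myc profile and 0.80 in the control. It was called kept when high in both, and lost when high in the 9myc profile and below the 95th percentile of intronless genes, 0.36, in the control. It was called gained when high in the control and below that percentile, 0.49, in the 9myc profile. Of intron genes 125 were high in the 9myc profile, against 3.25% of all genes, and 22 in the control, against 1.38%. By class, 87 of 91 ribosomal protein intron genes and 38 of 139 other intron genes were high in the 9myc profile, and 14 and 8 in the control. Of the 125, 19 were kept (0.639% of all genes), 49 were lost (1.22%) and 57 lay between the limits in the control. A further 3 intron genes were gained (0.479%).

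Many genes high in the 9myc profile still stood above the bulk of the control. Of the 87 ribosomal protein intron genes high in the 9myc profile, 66 still passed the 95th percentile of intronless genes in the control, against 6.37% of all genes. Among the 87, 1 gene, RPL33A, stood below the median rank there. Of the 38 other intron genes high in the 9myc profile, 10 passed that percentile and 7 stood below the median rank. The median rank of those 38 in the control was 78.8, against 96.3 for the 87 ribosomal protein genes. Among the genes called lost, 1 of 21 for ribosomal proteins and 7 of the 28 others stood below the median rank in the control.

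The 14 kept ribosomal protein intron genes included RPS13, RPL28, RPS14B, RPS22B, RPL2A, RPL7A, RPP1B, RPS4A, RPS9A, RPS9B, RPS26B and RPS27B. RPS13, for a protein of the small subunit, had the highest value of the whole 9myc profile, 2.86, and read 1.35 in the control. RPS14B, also of the small subunit, read 2.09 and 1.39, the highest value of its class in the control. RPL28, for a large subunit protein, read 2.49 and 1.18. These 3 genes read 1.22, 1.13 and 1.35 in spt5_194, and 0.14, 0.36 and 0.16 with 6-azauracil. All 14 kept genes passed the 95th percentile of intronless genes in spt5_194, against 6.56% of all genes, and none did in both spt5_194 and 6-azauracil, against 2.41%. Genes of one ribosomal protein often come as near-identical copies, such as RPS9A and RPS9B at 1.87 and 2.00 in the 9myc profile and 0.81 and 0.83 in the control, and probes of such pairs cannot be told apart with certainty.

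Outside the ribosome 5 intron genes were kept. EFB1 and TEF4, which encode subunits of translation elongation factor eEF1B and host snoRNAs in their introns, read 2.02 and 1.84 in the 9myc profile and 1.26 and 1.02 in the control. YRA1, for an mRNA export factor, read 1.71 and 1.21. QCR9, for a subunit of respiratory complex III, read 1.51 and 1.23, and ECM33, for a cell wall protein, 2.23 and 0.87. All 5 passed the 95th percentile in the other 2 columns with 9myc and in spt5_194. With 6-azauracil YRA1 read 1.70, the highest value of the 5, and the other 4 lay between 0.50 and 0.69. YRA1 also had the highest polymerase value of the 5, at 2.61, and the others lay between 0.79 and 1.61.

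Genes that host a snoRNA, a guide of rRNA modification, in their intron held high ranks in both columns. The 9 hosts measured had medians of 2.02 in the 9myc profile and 0.79 in the control. Of them 4 were kept (EFB1, TEF4, RPS22B and RPL7A), 5 lay between the limits and 0 were lost, with percentages over all genes as above. Their median ranks were 98.9 and 98.5. ASC1, for a ribosome-associated scaffold protein, read 1.67 and 0.79, and IMD4, for an IMP dehydrogenase, 1.11 and 0.43.

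The lost intron genes comprised 21 for ribosomal proteins and 28 others. RPL33A, for a large subunit protein, lost the most rank, from 1.89 in the 9myc profile to -0.51 in the control, or from rank 98.7 to 2.48. It read 0.51 in spt5_194 and -0.06 with 6-azauracil, so that its position below most genes was seen in the control and not in spt5_194. The other 20 lost ribosomal protein intron genes stood above the median rank in the control. Of all 21, 16 passed the 95th percentile of intronless genes in spt5_194. Of the 28 other lost intron genes 1 did, MMS2, at 0.44. All 49 lost intron genes passed that percentile in both other columns with 9myc, against 6.32% of all genes.

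The ribosomal protein genes with the most negative differences were not all lost, because some remained above the bulk of genes. RPL35B read 2.58 in the 9myc profile and 0.28 in the control, RPL20A 2.68 and 0.39, and RPL27B 2.40 and 0.12. RPS23A read 2.49 and 0.27, and RPL16B 2.44 and 0.30. RPS26A read 2.76 and 0.56, and RPL23A 2.62 and 0.44, and both stayed above rank 95 in the control. Large and small subunit genes did not part from each other: 52 large subunit intron genes had medians of 2.14 and 0.49, and 39 small subunit ones 2.14 and 0.55.

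Outside the ribosome the lost genes came from several basic functions. The following 5 lists of intron genes were drawn up after values had been seen, each as a whole category. Lost genes made up 28 of the 139 other intron genes, or 20.1%, and 1.22% of all genes, and the counts below are to be read beside these shares. Genes for ubiquitin-like conjugation, which attach ubiquitin and its relatives to proteins, had medians of 0.94 in the 9myc profile and -0.12 in the control over 9 genes. Of these 4 were lost: UBC4 at 1.91 and 0.18, UBC9 at 1.33 and -0.14, UBC13 at 1.08 and -0.21, and MMS2 at 1.15 and 0.11. UBC9 encodes the conjugating enzyme for SUMO, and UBC13 and MMS2 form one enzyme that builds ubiquitin chains. UBC13 and UBC9 ended at ranks 16.1 and 27.3, in the lower part of all genes.

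Genes of the actin and tubulin cytoskeleton had medians of 0.91 and 0.14 over 10 genes, and 3 were lost. PFY1, for profilin, read 1.79 and 0.15, COF1, for cofilin, 1.77 and 0.11, and ARP2, for a subunit of the Arp2/3 complex, 1.42 and 0.17. ACT1, the actin gene whose intron is a standard substrate of splicing assays, read 1.49 in the 9myc profile and 0.48 in the control. It lay between the limits in the control at rank 96.0, above the 3 lost genes of the list. CIN2, for a tubulin folding factor, was the 1 gene of the 10 that was higher in the control, at 0.63 against 0.37.

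Vesicle traffic genes had medians of 0.85 and 0.06 over 19 genes, with 7 lost and 1 gained. SEC14, for a phosphatidylinositol transfer protein, read 1.73 and 0.10, NYV1, for a vacuolar SNARE, 1.60 and 0.06, and YIP3 1.49 and -0.19. The other 4 lost were YOP1, ERD2, DID4 and SEC17, with 9myc values between 1.20 and 1.36. SAR1, for the GTPase of COPII coats, was the gained one, at 0.46 and 1.18.

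RNA processing genes with an intron had medians of 0.96 and 0.10 over 12 genes, with YRA1 kept and 4 lost. POP8, for a subunit of RNase P and MRP, went from rank 97.9 to 60.8, and LSM2, for a protein of the U6-binding Lsm ring, 1.26 and -0.13. LSM7 read 1.21 and 0.09, and TAD3, for a tRNA deaminase subunit, 1.07 and 0.24. MUD1, which encodes another U1 protein, read 0.40 and -0.01. Of 3 respiratory chain genes QCR9 was kept and QCR10 lost, at 1.14 and -0.14, although both encode subunits of complex III. Other lost genes with a large shift in rank were MRPL44, for a mitochondrial ribosomal protein, at 1.25 and -0.10, and NCB2, for a transcription regulator, at 1.07 and -0.20. RPL42B went from rank 98.8 to 55.5.

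Intron genes that are used in meiosis, and are mostly silent in growing cells, carried little Prp40 in either column. Their medians were -0.09 in the 9myc profile and -0.02 in the control over 12 genes. REC102, for a protein of meiotic recombination, was the exception in the control at 1.47, against 0.35 in the 9myc profile. It read -0.54 in spt5_194 and -0.02 with 6-azauracil. The other gained intron genes were alike in this: RRT8 read 2.91 in the control, 0.37 in the 9myc profile, 0.14 in spt5_194 and -0.33 with 6-azauracil. SAR1 read -0.14 and 0.10 in those columns. None of the 3 passed the 95th percentile in spt5_194, so their high values were seen in the control column alone among the 3 with 3myc.

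**Figure D4:**
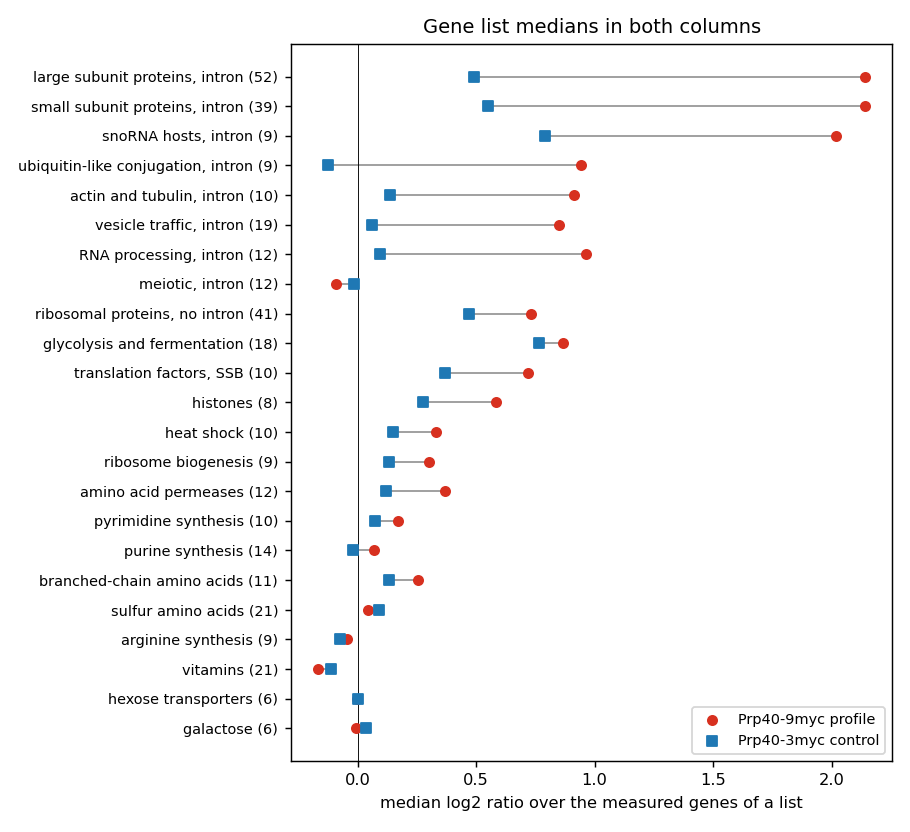
Median log2 ratio of gene lists in the Prp40-9myc profile (red circles) and the Prp40-3myc control (blue squares), with the number of measured genes in brackets; lists named as intron hold intron genes only, and no error is drawn because each group is 1 combined column. Ribosomal protein lists with an intron move from 2.14 to 0.49 and 0.55, and glycolysis and fermentation stays at 0.87 and 0.77.

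Prp40 on other intron genes was higher where polymerase was higher, over a wide range in the 9myc profile and a narrow one in the control. The 139 genes were cut into a low, a middle and a high set of 46, 46 and 47 genes by their RNA polymerase II value, which was measured in rich medium only. From the low to the high set, the median in the 9myc profile was 0.28, 0.66 and 1.15, and in the control -0.05, -0.03 and 0.21. High genes numbered 3, 6 and 29 in the 9myc profile and 1, 1 and 6 in the control. The high values of ribosomal protein intron genes in the control lay mainly in their high set. Their sets of 30, 30 and 31 genes had medians of 2.12, 2.10 and 2.31 in the 9myc profile and 0.39, 0.55 and 0.62 in the control, where 0, 3 and 11 genes were high. Across the 230 intron genes the rank correlation with polymerase was 0.76 for the 9myc profile and 0.71 for the control. Across the 5362 intronless genes it was 0.45 and 0.24. These correlations are across genes, which are not independent replicates and share the array.

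**Figure D5:**
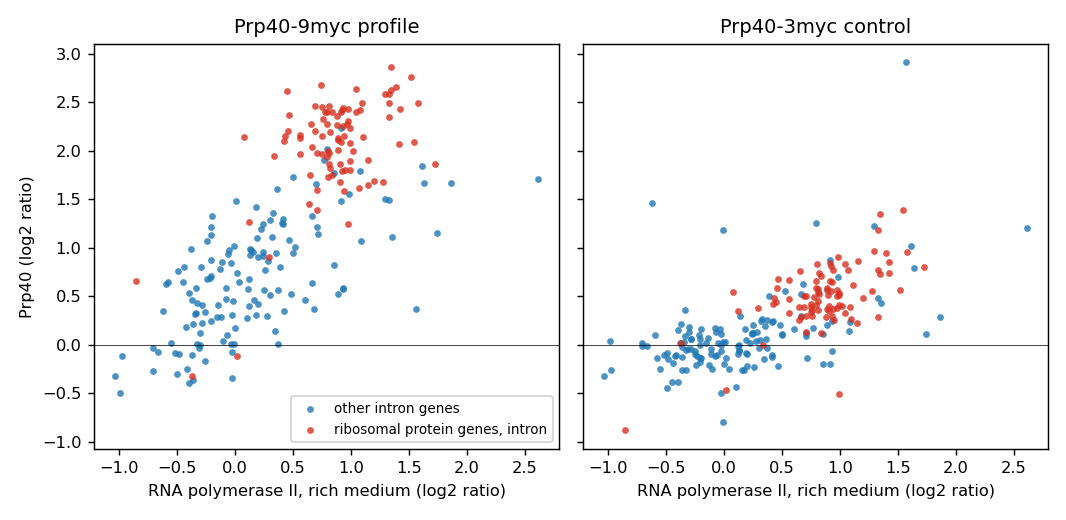
RNA polymerase II log2 ratio in rich medium (horizontal axis) against the Prp40 log2 ratio (vertical axis) for intron genes, in the Prp40-9myc profile (left) and the Prp40-3myc control (right); points beyond the axes are not drawn. Blue points climb from a median of 0.28 in their low polymerase set to 1.15 in the high set on the left, and from -0.05 to 0.21 on the right.

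Order among intron genes was partly shared. Spearman's rho between the 9myc profile and the control was 0.69 over all intron genes, 0.32 within the ribosomal protein genes and 0.36 within the others, and the first value includes the gap between both classes. Over intronless genes it was 0.29. Within one tag the order agreed more closely for 9myc, with a rho over intron genes of 0.93 between the 9myc profile and each of the other 2 columns. The control had a rho of 0.76 with spt5_194 and of 0.35 with 6-azauracil. Across the tags, the 9myc profile had a rho of 0.77 with spt5_194 and of 0.20 with 6-azauracil. The order in spt5_194 was thus about as close to the 9myc profile as to the control over all intron genes. Within ribosomal protein intron genes spt5_194 had a rho of 0.67 with the control and of 0.40 with the 9myc profile. Within the other intron genes these were 0.44 and 0.47.

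Intronless genes for ribosomal proteins had a wide range in the 9myc profile, from 0.16 to 2.55. The 15 that were high there, chosen by that value, had a median of 1.66 in it and of 0.59 in the control. The other 26 had medians of 0.56 and 0.44, and the difference between columns was not compared between the sets because the choice fixes part of it. Polymerase medians, which the choice did not use, were 1.05 and 1.32. RPL24A and RPL24B, a pair for 1 large subunit protein, read 2.45 and 2.49 in the 9myc profile and 0.84 and 0.80 in the control. These values in the 9myc profile lay inside the range of ribosomal protein intron genes.

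Some intronless genes have a near-identical copy with an intron, and probes may not tell such copies apart; the part of this in the values was not tested. RPS25B, without an intron, read 2.53 in the 9myc profile and 0.33 in the control, and its intron-bearing copy RPS25A read 2.42 and 0.39. RPS29B read 2.15 and 0.41, and its intron-bearing copy RPS29A 2.44 and 0.74. RPS22A read 1.66 and 0.71, and its intron-bearing copy RPS22B went from rank 99.8 to 99.2. RPL24A and RPL24B have no intron-bearing copy among the genes measured. RPL24A lies next to an intron gene on its chromosome, and RPL24B does not.

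Of the 41 intronless ribosomal protein genes, 32 were lower in the control after centring and 9 higher, against 53% of all genes lower. The 4 with the most positive differences are given here. RPL3, for a large subunit protein, read 0.87 in the 9myc profile and 1.25 in the control, and RPP0, for the stalk protein P0, 0.86 and 1.15. RPS3 read 0.49 and 0.79, and RPL5, for the protein that binds 5S rRNA, 0.43 and 0.72. In spt5_194 these 4 genes read 1.05, 1.05, 1.00 and 0.86. The rank correlation of the 41 genes with Spt5, itself measured with a 9myc tag, was 0.38 in the 9myc profile and 0.70 in the control. Over all 5362 intronless genes the order was the opposite, 0.50 and 0.29. Both are descriptions across genes.

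Intronless genes that kept Prp40 included many known for strong transcription, with polymerase values from 0.67 at BDF2 to 2.94 at CCW12. The 17 kept genes comprised RPL24A, RPL24B, RPL8A and RPL8B, the glycolytic and fermentation genes ADH1, TDH3, FBA1 and GPM1, and TEF1, CCW12, ILV5, GCN4, PSA1, MRH1, BDF2, IPI3 and IRC13. ADH1, for alcohol dehydrogenase, read 1.76 and 0.91, TDH3, for glyceraldehyde-3-phosphate dehydrogenase, 1.21 and 1.33, and FBA1, for aldolase, 1.12 and 1.35. These 3 genes read 1.37, 1.77 and 1.69 in spt5_194, and 1.59, 1.82 and 1.71 with 6-azauracil. TEF1, for translation elongation factor eEF1A, read 1.28 and 0.98, and ILV5, for an enzyme of branched-chain amino acid synthesis, 1.07 and 1.20. Of the 17 genes, 9 passed the 95th percentile in both other columns with 3myc and 16 in both other columns with 9myc.

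Several kept genes had a feature of their own in the annotation or in other columns. IRC13, an open reading frame without a known product, read 1.78 and 1.92 and lies between the intron gene RPL33B and SNR17A, a gene for the U3 snoRNA, in the RefSeq annotation of assembly R64. BDF2, for a bromodomain protein whose mRNA is known to be cut by the spliceosome although it has no annotated intron, read 1.35 in the 9myc profile and 1.11 in the control. It read 0.56 in spt5_194 and 0.68 with 6-azauracil, above the 95th percentile in both. IPI3, for a ribosome assembly factor, read 1.24 and 2.30 and was the kept intronless gene that did not pass the percentile in both other columns with 9myc, at 1.23 and 0.11. GCN4, for a transcription activator of amino acid synthesis, read 1.11 and 0.88 but -2.74 in spt5_194.

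The glycolytic and fermentation genes moved apart from each other. PGK1, for phosphoglycerate kinase, read 0.88 in the 9myc profile and 1.64 in the control, and PDC1, for pyruvate decarboxylase, 0.77 and 1.28. PGI1, for phosphoglucose isomerase, was lost, at 1.04 and 0.36, and PFK1 read 1.01 and 0.40. Of the 18 genes 10 were higher in the control after centring and 8 lower, 4 were kept and 1 was lost. With 6-azauracil their median reached 1.28, and it was 1.04 in spt5_194.

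The 18 lost intronless genes comprised 4 for ribosomal proteins and 14 others. ESC1, for a silencing protein of the nuclear rim, went from 1.22 to -0.18, or from rank 97.4 to 20.8. GUA1, for GMP synthase, read 1.28 and -0.04, and HRP1, for an mRNA cleavage factor, 1.05 at rank 96.9 in the 9myc profile and rank 55.5 in the control. RLP24 and RTS1 read 1.30 and 1.19 in the 9myc profile and 0.13 and 0.10 in the control, and YBR138C 1.34 and -0.02. RPP2A, for a ribosomal stalk protein, read 1.08 and 0.11. TRM44, for a tRNA methyltransferase, had the largest difference of them, from 2.43 to 0.08, but read -0.17 in each of the other 2 columns with 9myc, so its high value was seen in the 9myc profile alone. Of the 18 genes 15 passed the 95th percentile in both other columns with 9myc, 7 did in spt5_194, and 3 did in both other columns with 3myc.

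Of the 22 gained intronless genes 11 did not pass the 95th percentile in spt5_194. TOP2, for DNA topoisomerase II, held the highest value of the control, 3.37, against 0.06 in the 9myc profile, and read -0.05 in spt5_194 and -0.48 with 6-azauracil. THI6, for a thiamine synthesis enzyme, read -0.10 and 2.42, with -0.16 and 0.01 in those columns. YOR012W read -0.27 and 2.81, with 0.03 and 0.26, and ELP6, for a subunit of Elongator, -0.48 and 1.86, with -0.25 and -0.16. High values of this kind were seen in 1 of the 3 columns with 3myc. TRA1, for a subunit of SAGA and NuA4, went from -1.02, rank 0.106, to 0.95, rank 99.1, and read -0.25 and 0.96 in spt5_194 and with 6-azauracil.

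Others of the 22 also passed the 95th percentile in the other columns from SC-URA. YLR162W read -0.23 in the 9myc profile and 1.20 in the control, with 1.43 in spt5_194 and 0.81 with 6-azauracil. MGR1, for a mitochondrial protease adaptor, read -0.13 and 1.42, with 0.69 and 0.64. In all 10 of the 22 passed the 95th percentile in both other columns with 3myc, and 2, HSP150 and YBR090C, did in both with 9myc. YFR057W, YER188W and PUF2, for an mRNA-binding protein, did not pass it in both. YFR057W read -0.48 in the 9myc profile and 0.80 in the control, with 1.05 in spt5_194 and 0.44 with 6-azauracil. YER188W read -0.18 and 0.95, with 0.28 and 0.60, and PUF2 -0.42 and 0.89, with 0.19 and 0.14. YPS7, for an aspartic protease, was between the limits in the 9myc profile at 0.83 and read 2.85 in the control, with -4.58 in spt5_194 and 3.67 with 6-azauracil.

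The lists of pyrimidine, purine, arginine and vitamin synthesis genes had similar medians in both columns, with single genes apart. Pyrimidine synthesis genes, the pathway that uracil feeds into, had medians of 0.17 and 0.07 over 10 genes with 0 past 1 in either direction, and URA3 read 0.10 and -0.07. Purine synthesis genes had medians of 0.07 and -0.02 over 14 genes, arginine synthesis genes -0.04 and -0.07 over 9, and vitamin synthesis genes -0.17 and -0.11 over 21. Each of these 3 lists held 1 gene past 1: GUA1 differed by -1.35, ARG7, of arginine synthesis, by -1.52, and THI6 by 2.50. HOM2, of methionine synthesis, read -0.21 in the 9myc profile and -2.95 in the control, and PHA2, of phenylalanine synthesis, 0.07 and -1.40. Amino acid permease genes had medians of 0.37 and 0.12 over 12 genes, and TAT2, for a tryptophan permease, was the highest of them in the control at 0.70 against -0.02. Translation factor and SSB chaperone genes had medians of 0.72 and 0.37 over 10 genes, and histone genes 0.58 and 0.28 over 8, all of which were lower in the control after centring. Heat shock genes had medians of 0.33 and 0.15 over 10 genes, and galactose genes -0.01 and 0.04 over 6. PRP40 itself, the tagged locus, read -0.03 in the 9myc profile and 0.36 in the control.

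Neighbours on the chromosome were counted last, from the RefSeq annotation. Of the 54 intronless genes high in the 9myc profile 9 neighboured an intron gene, or 16.7%, against 438 of 5362 intronless genes, or 8.17%. Of the 54 high in the control 5 did. Among kept, lost and gained intronless genes 2 of 17, 3 of 18 and 2 of 22 neighboured one. No test was made of these shares.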

How the data were processed

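Prp40 was measured by 2-colour ChIP-chip on spotted arrays of open reading frames. Per the labels and the design text of the series, both DNA fractions went through linker-mediated PCR and dye labelling, at least 1 replicate had its dyes swapped, and Rosetta Resolver combined the replicates. The authors deposited 1 log2 ratio per probe and column; no source used here gives the normalisation or the way of combining. The scale ends at 6.64 in either direction, a 100-fold ratio, which 1 gene reached in the control. Of 6284 probes, 5707 matched a RefSeq locus of assembly R64, and 37 nuclear genes lacked a 9myc value.

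The list of intron genes was drawn up from memory, because the list of an earlier analysis was not at hand; 255 of 258 names matched, and 161 have a RefSeq span that is not a multiple of 3. Gene sets, limits and members were chosen with earlier results of these data known. Columns were centred on the median of intronless genes. Named genes are the kept, lost and gained genes with the largest rank or rank shift (8, 10 and 10 intron, 6, 8 and 8 intronless), those with the largest differences (8 and 6 at each end) and list members. Spearman's rho and medians were computed in Python 3.11.15 with pandas 2.3.3, numpy 2.4.6 and scipy 1.17.1. Only the centred difference and its count past 1 were tried on simulated columns, with shifts well beyond that limit and little noise. That trial checks the arithmetic alone, and rho, class medians and rank calls were not part of it. Alternatives are in the closing section. No tests or p-values were made.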

Additional observations from a re-analysis of the deposited data

How the results depend on the processing

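Of 185 values under 16 alternative settings, 133 stayed within the tolerance, a shift under 0.1 for a median or correlation and a ratio of at most 1.5 for a count. Of the others 49 moved, and 3 medians at least 0.1 from 0 changed sign. A further 6 changes of sign, in 5 lists, concerned medians nearer to 0 than that. No paired analysis was possible because each group is 1 combined column, and for the same reason no replicate was left out. Turning the sign of a column was planned for a correlation below -0.3 and was not needed at 0.38. Settings added after seeing the data were the fitted line, the 200 highest genes, the span check of intron genes and leaving out 6-azauracil, and quantile normalisation of the distances.

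Scale moved the sizes. Quantile normalisation gave median differences of -0.79 for ribosomal protein intron genes, -0.43 for other intron genes and 0.073, a reversal, for intronless ribosomal protein genes. It left 46 intron genes lower by more than 1, with 26 intronless genes lower and 54 higher, and 2 intron genes with all 3myc columns above. It changed the sign of 5 of 19 lists: translation factors (to 0.12), heat shock (to 0.049), ribosome biogenesis (from -0.10 to 0.09), sulfur amino acids (from -0.02 to 0.06) and pyrimidine synthesis (from -0.09 to 0.006). It moved glycolysis to 0.41, and the distances in the 9myc profile to 0.95 and 0.56. Means gave glycolysis -0.08 and aromatic amino acids -0.01, and sulfur amino acids turned to 0.007 without centring. Scaling the control to the robust SD of the 9myc profile gave -1.49 for ribosomal protein intron genes and -0.16 for the intronless ones, for which means in place of medians gave -0.49. Against the line fitted to intronless genes 2 intron and 20 intronless genes were lower by more than 1.

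Limits moved the counts by construction. With a lower pair of limits, the lower at the 90th percentile, 48 intron genes were kept and 0 gained, and 57, 43 and 47 intronless genes were kept, lost and gained. With the 95th alone 79 intron genes were kept and 94 lost, and 106, 163 and 163 intronless genes were kept, lost and gained. With limits on all genes 6 intron genes were kept and 18 lost, and 0 intronless genes were kept and 3 lost. At 1.5-fold 241 intronless genes were lower and 103 higher. The 200 highest genes of the control held 54 intron genes.

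The rho over intron genes was 0.57 as Pearson's r and 0.36 without ribosomal protein genes. Over the 4 perturbed columns alone, which leave out both columns compared here, 199 of 230 intron genes had all 3myc values below all 9myc values and 2 had them above. Of the 5362 intronless genes 1265 had them below and 1108 above. Without 6-azauracil 2 intron and 757 intronless genes had them above. Arrays carry no depth, and without single replicates the error of each value is unknown.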
